A study of Mus musculus with 18 samples.

Results

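The genes described here are 9 genes through which the vessel wall sets clotting, clot lysis and nitric oxide: Thbd, Procr, Tfpi, F3, Vwf, Plat, Plau, Plaur and Nos3. They were chosen by symbol, from the rows of the deposited tables whose Ensembl gene carries one of these names, and are 9 of 30072 genes in the tables. All 9 passed the filter on low counts. The hearts came from male and female CD-1 mice, an outbred stock, aged 8 weeks or more. The 3 groups held 6 mice each: controls given isoflurane anesthesia and no irradiation, and mice irradiated once with 25 Gy under the same anesthesia and studied 2 or 6 weeks later (post-IR). The labels name the septum and gamma rays, where the study's methods name the ventricles and an X-ray source, and only the methods say that controls also had CT imaging. The sex of single mice is not given, and each sample is 1 mouse. Y-linked transcripts were low in mice 1 to 3 and high in mice 4 to 6 of each group. The study asked how one dose of radiation changes gene expression in the heart. For these genes the comparisons give transcript levels in bulk heart tissue at each time, from all its cell types and not the vessel wall alone.

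Clotting in a vessel begins when tissue factor (F3) binds factor VII, and it ends in thrombin. Endothelial cells hold this in check: thrombomodulin (Thbd) turns thrombin towards activating protein C, the endothelial protein C receptor (Procr) presents protein C to that complex, and tissue factor pathway inhibitor (Tfpi) blocks the tissue factor complex. Von Willebrand factor (Vwf), stored in endothelial granules and platelets, tethers platelets. Tissue-type (Plat) and urokinase-type (Plau) plasminogen activators make plasmin, which dissolves fibrin, and Plaur is the cell surface receptor of urokinase. Endothelial nitric oxide synthase (Nos3) makes the nitric oxide that relaxes vessels and restrains platelets.

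Promoter windows from RefSeq (GRCm38.p6, 250 bases before to 50 after the start of transcription) could be matched to 4 of the 9 genes. Windows of Plaur and Procr, whose transcripts rose at 6 weeks, and of F3 and Tfpi, whose transcripts did not pass the test, are shown 5′ to 3′ on the strand of the gene. Capitals mark every match, on either strand, to AP-1 (TGANTCA), a KLF core (CCACCC), Sp1 (GGGCGG) and the TATA box, searched as TATAAA.
Plaur, chr7:24462233-24462532, plus strand: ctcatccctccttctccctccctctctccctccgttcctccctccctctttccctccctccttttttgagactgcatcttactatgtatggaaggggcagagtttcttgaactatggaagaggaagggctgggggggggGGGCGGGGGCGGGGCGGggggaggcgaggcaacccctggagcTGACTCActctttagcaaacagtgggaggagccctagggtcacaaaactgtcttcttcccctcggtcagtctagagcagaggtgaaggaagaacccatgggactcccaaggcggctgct
Procr, chr2:155750967-155751266, plus strand: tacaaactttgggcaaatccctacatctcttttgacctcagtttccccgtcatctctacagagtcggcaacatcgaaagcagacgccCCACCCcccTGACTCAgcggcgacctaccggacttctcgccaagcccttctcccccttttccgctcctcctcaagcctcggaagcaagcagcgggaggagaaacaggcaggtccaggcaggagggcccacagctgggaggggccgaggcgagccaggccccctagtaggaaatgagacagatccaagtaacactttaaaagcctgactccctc
F3, chr3:121723287-121723586, plus strand: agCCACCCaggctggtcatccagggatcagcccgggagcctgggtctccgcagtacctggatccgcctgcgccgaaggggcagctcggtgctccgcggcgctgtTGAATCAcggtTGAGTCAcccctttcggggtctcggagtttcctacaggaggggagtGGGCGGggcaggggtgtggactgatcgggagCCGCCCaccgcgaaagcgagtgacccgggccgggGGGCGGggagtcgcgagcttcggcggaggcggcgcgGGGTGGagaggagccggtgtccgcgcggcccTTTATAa
Tfpi, chr2:84476710-84477009, minus strand: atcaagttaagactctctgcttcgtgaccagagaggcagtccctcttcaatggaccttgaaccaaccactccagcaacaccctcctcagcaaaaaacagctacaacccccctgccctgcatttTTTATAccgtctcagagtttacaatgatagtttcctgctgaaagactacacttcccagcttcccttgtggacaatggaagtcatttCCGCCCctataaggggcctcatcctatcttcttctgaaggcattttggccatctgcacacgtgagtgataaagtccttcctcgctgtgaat
AP-1 was matched once in Plaur (at -69 from the start) and once in Procr (at -154). F3 held 2 AP-1 matches (at -146 and -135), and the 2 windows of Tfpi held none. Of all 32851 windows in the table, 7.81% held AP-1. The KLF core, the motif of the shear-responsive factors Klf2 and Klf4, was matched once in Procr and in 2 places in F3, and was held by 31.5% of all windows. Sp1 was matched in 3 places in F3, in 3 neighbouring places in Plaur and once in each Tfpi window (35.7% of all windows), and the TATA box was matched in F3 and in the Tfpi window shown (13.6%). ETS letters (GGAAGTGA or CCGGAAGT) were in none of these windows and in 6.49% of all. AP-1 was thus present in windows of genes that rose and in that of F3, which did not pass the test, and a match describes letters only.

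Sequencing gave between 11522987 and 15501019 estimated counts per mouse (median 13682449). Levels are given as CPM (counts scaled to a fixed library total), with TMM scaling (trimmed mean of M-values). A floor of 3 counts was 0.194 to 0.260 CPM and covers counting error only. TMM factors rose with time, from 0.844 to 0.991 in controls to 1.04 to 1.13 at 6 weeks, as mitochondrially encoded genes went from a median of 23.2% to 17.4% of counts. All changes below are therefore relative to the other genes of the same mouse. Markers of cardiomyocytes were abundant in every mouse (mean log2 CPM of the list from 12.1 to 12.9). Control mouse 4 stood apart from the other controls in macrophage markers (mean log2 CPM 5.06 against 3.67 to 4.31) and in fibroblast markers (7.33 against 6.16 to 6.68, summed 2127 against 787 to 1120 CPM). Markers of atrial cardiomyocytes summed to 233 to 1583 CPM in controls, with mouse 4 highest. They summed to 161 to 1247 CPM at 2 weeks and 73.1 to 696 at 6 weeks. Whether the tissue taken differed between mice was not tested. In bulk tissue, fewer cells of a type and less RNA per cell cannot be told apart. A gene was called changed where edgeR's P, adjusted over all genes by the method of Benjamini and Hochberg (BH), was under 0.05.

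At 6 weeks post-IR, both plasminogen activators, the urokinase receptor and the protein C receptor were higher than in controls, while von Willebrand factor and thrombomodulin were lower. Of the 9 genes, 4 were called higher and 2 lower, where 13.5% of all 15054 genes tested were called higher and 11.5% lower. The 4 that rose did so without overlap between the groups, against 9.23% of all genes, and 3 of them rose by more than 1 on the log2 scale, against 5.27%. Tfpi, F3 and Nos3 did not pass the test. The median log2 fold change was 0.21 over the 9 genes and -0.02 over all genes.

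At 2 weeks, only the fibrinolytic genes among the 9 had passed the test. Plaur, Plau and Plat were called higher and 0 of the 9 lower, where 3.09% of all genes were called higher and 1.93% lower. At an unadjusted P under 0.05 there were again 3 higher and 0 lower, and DESeq2 also called 3 higher and 0 lower. Plaur was the single gene of the 9 without overlap at this time (3.24% of all genes) and the single one to rise by more than 1 on the log2 scale (0.737%). Both comparisons use the same control mice, so their results are not independent. The difference between the times was tested directly. Between 6 and 2 weeks, Plau was higher, without overlap, and 0 of the 9 were lower. Of all genes, 3.31% were called higher and 2.01% lower, and 3.54% did not overlap. At an unadjusted P under 0.05, 4 of the 9 were higher and 2 lower at 6 than at 2 weeks, and DESeq2 called 2 higher (Plau and Plat) and 1 lower (Vwf).

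**Figure D1:**
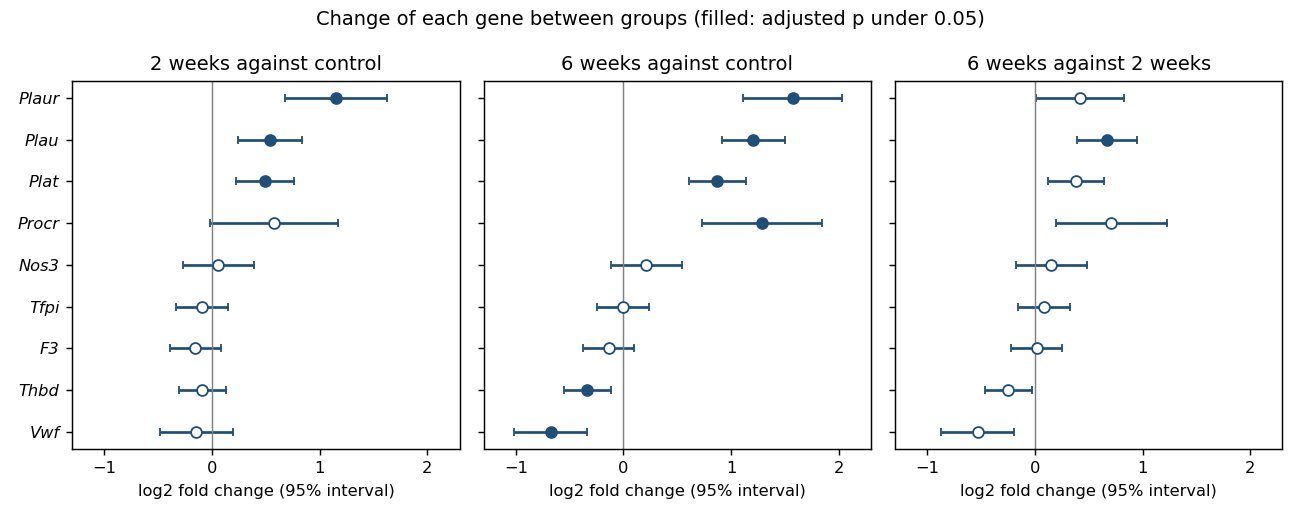
Log2 fold change of each of the 9 genes (points) with its 95% interval (bars) in the 3 comparisons, as fitted by edgeR; filled points passed an adjusted P of 0.05. Both plasminogen activators, the urokinase receptor and Procr lie to the right of 0 at both times. Procr is filled only at 6 weeks against control, and Vwf and Thbd lie to the left at 6 weeks.

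Tissue-type plasminogen activator is released by endothelium to start fibrinolysis. Plat was 9.25 CPM in the lowest control, 13.7 at the median and 18.9 in the highest. It was 16.8, 18.7 and 23.7 CPM at 2 weeks, and 21.7, 24.5 and 30.3 CPM at 6 weeks. Every 6-week mouse was above every control, and at 2 weeks the overlap came from control mouse 4, which had the highest control level. The mean rose from 13.8 ± 3.09 (SD, n = 6) to 19.4 ± 2.36 and 25.3 ± 3.02 CPM. The log2 fold change was 0.49 at 2 weeks (SE 0.13, BH-adjusted P = 0.0331) and 0.87 at 6 weeks (SE 0.13, BH-adjusted P = 8.09e-05), a 1.83-fold rise. At 2 weeks leaving out 1 mouse at a time kept the call in 11 of 18 runs. It was also lost when scaled to pan-endothelial markers (BH-adjusted P = 0.0545) and with the compared groups alone (BH-adjusted P = 0.0578). Of the runs, it was lost without control mouse 2, 3, 5 or 6 or 2-week mouse 1, 5 or 6, with adjusted P up to 0.0784, and without control mouse 4 the log2 fold change was 0.61 (BH-adjusted P = 0.00558). From 2 to 6 weeks Plat differed by 0.38 (SE 0.12, BH-adjusted P = 0.0800), and without control mouse 3 or 4 that difference passed the test (BH-adjusted P = 0.0389 and 0.0383). The gene lies at chr8:22757727-22782844 on the plus strand (GRCm38).

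Urokinase, the second activator, works mainly at cell surfaces. Plau was 5.75 CPM in the lowest control, 7.47 at the median and 8.75 in the highest. It was 8.18, 10.9 and 13.2 CPM at 2 weeks, and 14.9, 16.02 and 23.8 CPM at 6 weeks. The 6-week mice were above every mouse of both other groups, so Plau was the one gene of the 9 with a step that did not overlap between the times. The log2 fold change against controls was 0.54 at 2 weeks (SE 0.14, BH-adjusted P = 0.0363) and 1.21 at 6 weeks (SE 0.14, BH-adjusted P = 9.78e-06), a 2.31-fold rise. From 2 to 6 weeks it rose by 0.67 (SE 0.13, BH-adjusted P = 0.0106). The 2-week call was kept in 10 of 18 runs that left out 1 mouse. It was lost without control mouse 3, 4, 5 or 6 or 2-week mouse 1, 3, 5 or 6, with adjusted P up to 0.0834, and by voom (BH-adjusted P = 0.0558). The 6-week call and the step between the times were kept in all 18. Plau lies at chr14:20836660-20843385 on the plus strand.

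The urokinase receptor holds urokinase at the cell surface and is carried by leukocytes as well as activated endothelium. Plaur was 1.43 CPM in the lowest control, 2.04 at the median and 3.11 in the highest. At 2 weeks it was 3.27, 4.60 and 6.45 CPM, and at 6 weeks 4.23, 6.03 and 8.93 CPM. No irradiated mouse overlapped the controls at either time, while the 2 irradiated groups overlapped each other. The log2 fold change was 1.15 at 2 weeks (SE 0.23, BH-adjusted P = 0.00731) and 1.57 at 6 weeks (SE 0.22, BH-adjusted P = 5.82e-05), a 2.97-fold rise and the largest among the 9 genes. Between the times it differed by 0.42 (SE 0.20, BH-adjusted P = 0.219). Counts were low, 17 to 36 per control mouse, and both calls were kept in all 18 runs that left out 1 mouse. Plaur lies at chr7:24462484-24475968 on the plus strand.

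Among the anticoagulant genes, Procr rose at 6 weeks. It was 0.740 CPM in the lowest control, 1.74 at the median and 2.29 in the highest. At 2 weeks it was 1.12, 2.73 and 3.51 CPM, and at 6 weeks 2.36, 4.19 and 5.57 CPM. The lowest 6-week mouse, mouse 2, lay just above the highest control, so the groups did not overlap but came close. The log2 fold change was 1.28 at 6 weeks (SE 0.27, BH-adjusted P = 0.00161), a 2.43-fold rise, and 0.57 at 2 weeks (SE 0.28, BH-adjusted P = 0.264). These values rest on 8 to 35 counts per control mouse. The difference of 0.71 between the times did not pass the test (SE 0.25, BH-adjusted P = 0.0987). Procr lies at chr2:155751117-155755471 on the plus strand.

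Thrombomodulin, encoded by the single exon of Thbd at chr2:148404466-148408188 on the minus strand, was lower at 6 weeks. It was 64.1 CPM in the lowest control, 75.9 at the median and 77.7 in the highest. At 2 weeks it was 58.0, 68.4 and 79.9 CPM, and at 6 weeks 44.8, 58.0 and 74.8 CPM. At 6 weeks 5 of 6 mice were below the lowest control, and mouse 6 was not. Thbd fell by 0.34 on the log2 scale at 6 weeks (SE 0.10, BH-adjusted P = 0.0226), to 0.792 of the control level, and the difference of -0.09 at 2 weeks did not pass the test (SE 0.10, BH-adjusted P = 0.664). The call was lost without control mouse 3 (BH-adjusted P = 0.0514), without 6-week mouse 3 (0.0554) and without 6-week mouse 5 (0.0524).

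Tfpi, at chr2:84432855-84476775 on the minus strand, did not pass the test in any comparison. It was 32.3, 44.0 and 51.6 CPM at the lowest, median and highest control, 29.8, 41.3 and 48.7 CPM at 2 weeks, and 37.7, 42.2 and 49.97 CPM at 6 weeks. The 3 groups overlapped through most of their range. At 6 weeks the log2 fold change was -0.01 (SE 0.12, BH-adjusted P = 0.982), with a 95% interval from -0.25 to 0.24. Thbd, Procr and Tfpi, all anticoagulant, thus gave a fall, a rise and a value near 0.

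Neither procoagulant gene was called higher at either time. Vwf was 98.6 CPM in the lowest control, 109.6 at the median and 142 in the highest. At 2 weeks it was 77.2, 115 and 118 CPM, with mice 1 and 6 at 79.2 and 77.2 CPM and the other 4 between 115 and 118. At 6 weeks it was 54.9, 66.9 and 112.7 CPM. Of the 6-week mice, 5 were between 54.9 and 72.2 CPM, below every control and every 2-week mouse, and mouse 2 stood apart within the control range. Vwf fell by 0.68 on the log2 scale at 6 weeks (SE 0.16, BH-adjusted P = 0.00487), to 0.626 of the control level, and by 0.85 without mouse 2 (BH-adjusted P = 0.000254). From 2 to 6 weeks the difference of -0.53 missed the threshold (SE 0.16, BH-adjusted P = 0.0633), and without 6-week mouse 2 it was -0.70 (BH-adjusted P = 0.00838). Vwf lies at chr6:125546774-125686679 on the plus strand.

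Tissue factor did not pass the test at either time. F3, at chr3:121723537-121735048 on the plus strand, was 8.05, 9.32 and 11.1 CPM at the lowest, median and highest control. It was 7.03, 8.53 and 9.62 CPM at 2 weeks and 7.15, 8.54 and 10.3 CPM at 6 weeks. The groups overlapped, and the log2 fold change was -0.15 at 2 weeks (SE 0.11, BH-adjusted P = 0.466) and -0.14 at 6 weeks (SE 0.11, BH-adjusted P = 0.406). The interval at 6 weeks ran from -0.37 to 0.10.

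Nos3, at chr5:24364810-24384474 on the plus strand, was 22.3, 39.1 and 46.7 CPM at the lowest, median and highest control, 25.7, 39.5 and 50.5 CPM at 2 weeks, and 34.7, 43.7 and 50.9 CPM at 6 weeks. Control mouse 4 had the lowest level. The log2 fold change was 0.21 at 6 weeks (SE 0.16, BH-adjusted P = 0.358), with an interval from -0.12 to 0.54. Nos3 shares 294 exon bases with Atg9b on the opposite strand, which had at most 48.0 counts in any mouse, and 1040 with the antisense gene Gm15587. Whether the counting used strand is not stated, so reads over those bases cannot be assigned.

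**Figure D2:**
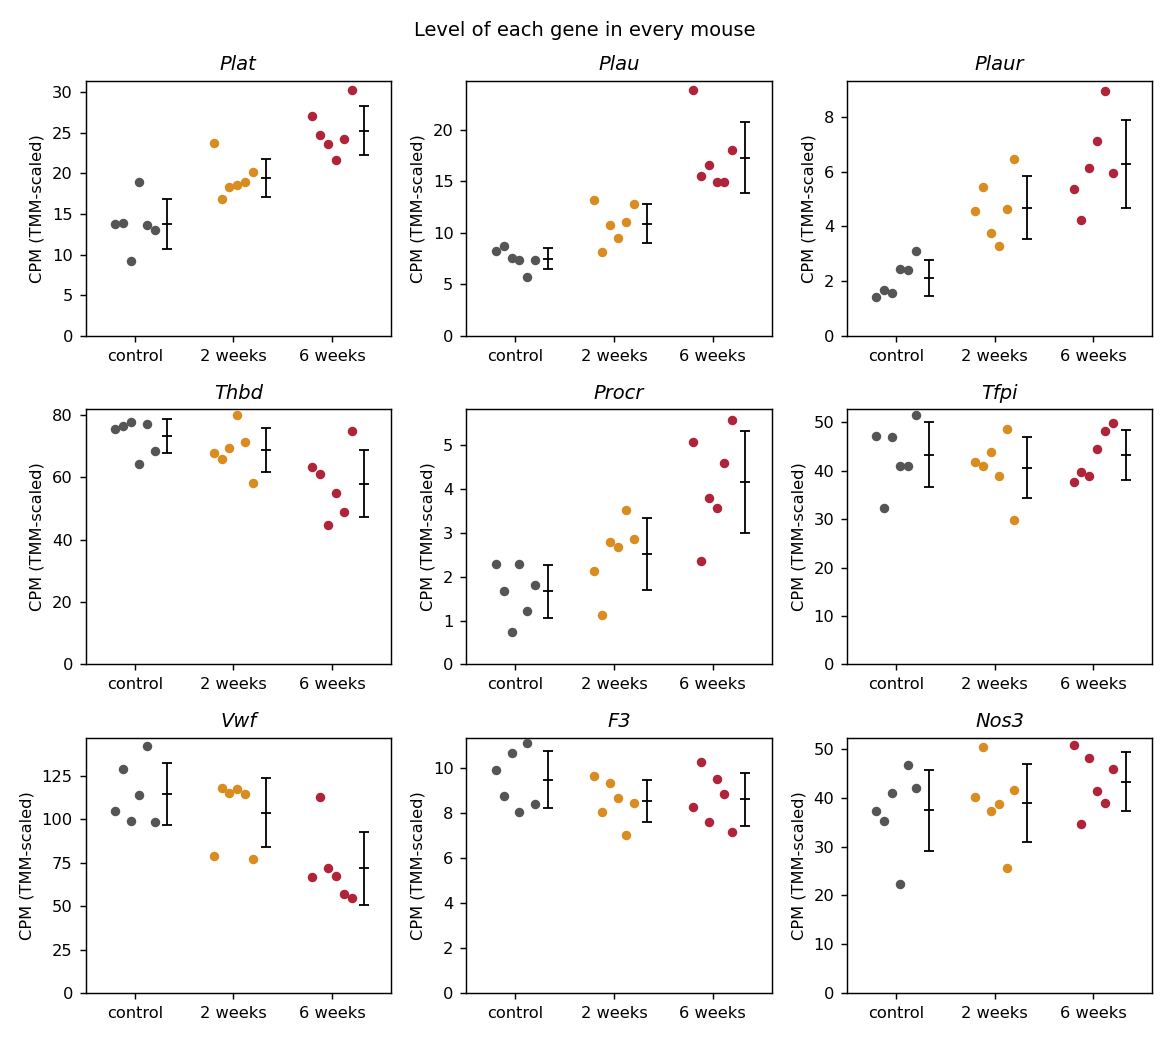
Level of each of the 9 genes in CPM (vertical axis, from 0) in every mouse (points, in order of mouse number) of the control, 2-week and 6-week groups; the bars beside them give the mean and SD of 6 mice. Plat, Plau and Plaur step up at both times, Procr at 6 weeks, and 5 of the 6 Vwf values at 6 weeks lie below all others of that gene.

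The falls of Thbd and Vwf depended on the scaling. Scaling by library size alone moved the median change over all genes (log2) to 0.15 at 2 weeks, 0.24 at 6 weeks and 0.11 between the times, and of the calls at 6 weeks 94.4% were then higher, against 54.0% with TMM. Of the calls at 2 weeks, 95.4% were then higher against 61.6%, and between the times 91.3% against 62.2%. In the same run Thbd was -0.07 at 6 weeks (BH-adjusted P = 0.663) and Vwf -0.41 (BH-adjusted P = 0.0590), while Nos3 passed the test at 0.49 and of the 9 genes 5 were called higher and 0 lower, against 36.5% and 2.17% of all genes. In the deposited TPM values (transcript abundance per length), which are scaled within and not between mice, Vwf had a control mean of 21.9 ± 4.56 (SD, n = 6), with 22.2 ± 6.86 at 2 weeks and 20.5 ± 7.39 at 6 weeks. On the log2(TPM + 1) scale the median of all genes was 0.29 at 6 weeks, with 98.4% of calls higher (98.6% at 2 weeks, 95.6% between the times). Thbd was 0.04 there (BH-adjusted P = 0.796) and Vwf -0.13 (BH-adjusted P = 0.651), both below that median. Tfpi at 0.47 (BH-adjusted P = 0.00203) and Nos3 at 0.57 passed the test on that scale, which called 6 of the 9 higher and 0 lower, against 48.9% and 0.784% of all genes. Plaur, Plau, Plat and Procr were called higher at 6 weeks under each of the 32 alternatives.

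Thbd and Vwf were also lower at 6 weeks relative to the mean of a list of endothelial markers, though not to each marker on it. The 10 pan-endothelial markers had a mean log2 CPM of 6.09 to 6.34 in controls and 6.24 to 6.58 at 6 weeks (exact permutation test, BH-adjusted P = 0.180 over 45 tests of marker lists), and their summed level was 955 to 1156 CPM in controls and 1151 to 1525 at 6 weeks. Of these markers 4 rose at 6 weeks, Pecam1, Cdh5, Esam and Erg, and 2 fell, Tie1 by 0.44 and Tek by 0.75. Scaled to this list, the log2 fold change at 6 weeks was -0.48 for Thbd (BH-adjusted P = 0.00239) and -0.79 for Vwf (BH-adjusted P = 0.00272), and 32.0% of calls were higher (66.8% at 2 weeks, 35.8% between the times). Vwf relative to the list was 0.38 to 0.93 on the log2 scale in controls and -0.61 to 0.58 at 6 weeks, where mouse 2 alone was above 0. Plat relative to the list was -2.86 to -1.94 in controls and -1.85 to -1.47 at 6 weeks, with no overlap. At 6 weeks the endocardial and lymphatic endothelial lists changed by -0.34 and -0.28 (exact permutation tests, BH-adjusted P = 0.264 and 0.274). Arterial and venous lists changed by -0.10 and -0.08 (BH-adjusted P = 0.430 and 0.713). Npr3 alone of 4 endocardial markers was called lower, by 0.73. Endocardial means were highest where Vwf was in controls (mouse 5) and at 6 weeks (mouse 2), but not at 2 weeks. The part of these cells in the Vwf level was not tested. Platelet markers, of which 5 of 7 passed the filter, gave 0 called genes in any comparison by edgeR or DESeq2, and 0 at an unadjusted P under 0.05. Their summed level was 9.44 to 17.2 CPM in controls and 11.9 to 18.9 at 6 weeks.

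**Figure D3:**
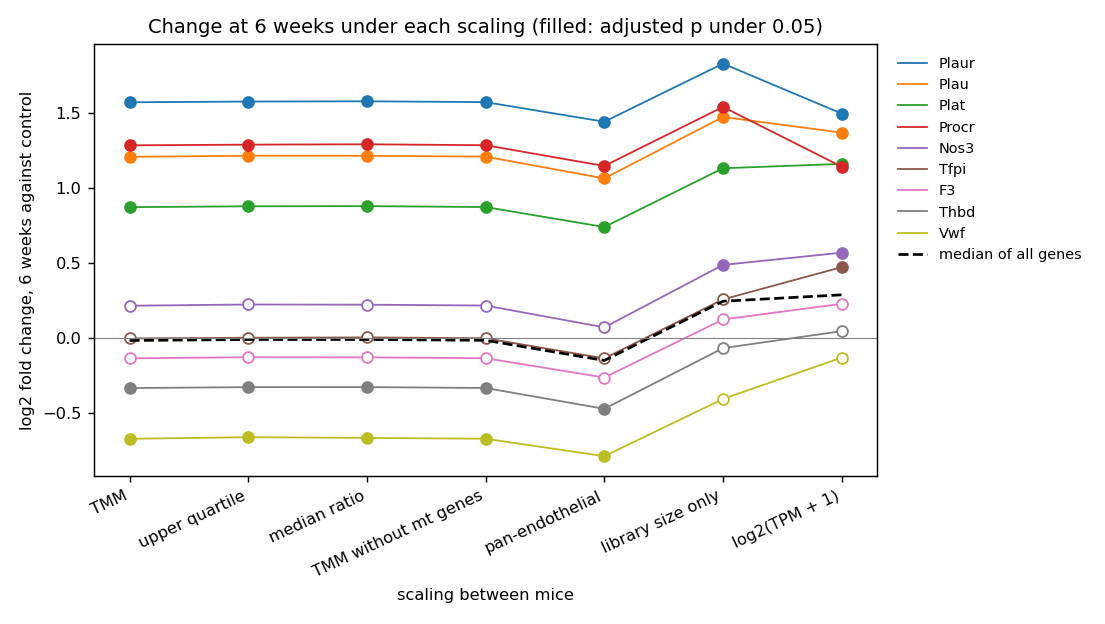
Log2 fold change at 6 weeks against control (vertical axis) of the 9 genes under 7 scalings between mice (horizontal axis), with the median of all genes as a dashed line; filled points passed an adjusted P of 0.05. Most lines shift with the dashed line, Vwf and Thbd stay below it, and their calls are lost with library size and TPM.

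Leukocyte markers moved with the genes that rose. All 6 macrophage markers (Cd68, Adgre1, Csf1r, C1qa, C1qb and Mrc1) were higher at 6 weeks. The mean of the list rose by 1.02 log2 units at 6 weeks (exact permutation test, BH-adjusted P = 0.0487), with a summed level of 105 to 264 CPM in controls, 180 to 236 at 2 weeks and 246 to 347 at 6 weeks. At 2 weeks it was higher by 0.51 (BH-adjusted P = 0.162). Of the 6 monocyte and neutrophil markers 4 passed the filter and 3 rose, with a summed level of 2.41 to 11.2 CPM in controls and 15.9 to 21.9 at 6 weeks. The other tested marker, S100a9, was -0.91 at 6 weeks and did not pass the test. The mean of this list was higher by 1.27 at 6 weeks and missed the threshold (exact permutation test, BH-adjusted P = 0.0584). The neutrophil gene S100a8 had at most 4 counts in any mouse. Cardiomyocyte markers fell by 0.47 (BH-adjusted P = 0.0487), and their summed level was 77171 to 100368 CPM in controls and 67916 to 75494 at 6 weeks. Control mouse 4, highest among controls in macrophage and fibroblast markers, was highest in Plat and, by a narrow margin, in Procr (2.29 CPM against 2.28 in control mouse 1). Plau was highest in control mouse 2 (8.75 CPM against 7.35 in mouse 4) and Plaur in control mouse 6 (3.11 against 2.43). The part of these cells in the levels of Plat, Plau, Plaur and Procr was not tested.

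**Figure D4:**
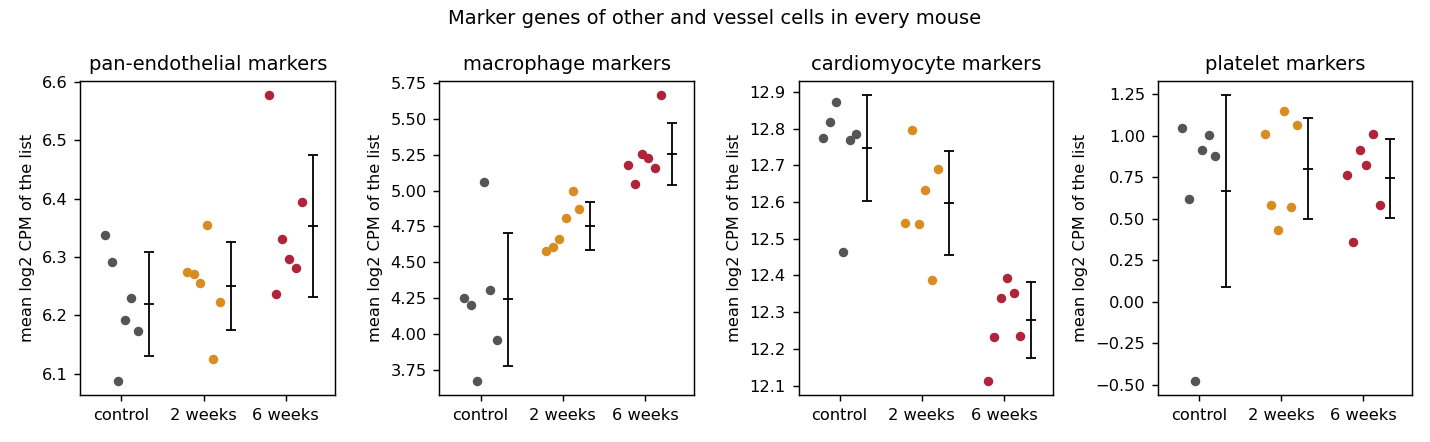
Mean log2 CPM of 4 marker lists (vertical axis, a different range in each panel) in every mouse (points), with mean and SD of 6 mice (bars). Macrophage markers are higher and cardiomyocyte markers lower at 6 weeks, control mouse 4 lies at 5.06 for macrophages, and the platelet panel overlaps throughout.

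Between genes, levels were compared per length in TPM. In controls Vwf (21.9 ± 4.56), Thbd (19.3 ± 2.17) and Tfpi (19.1 ± 3.08) led, with ranges that overlapped one another. Next came Nos3 (8.44 ± 1.72), Plat (6.03 ± 1.66), F3 (5.25 ± 0.891) and Plau (3.55 ± 0.619), each overlapping its neighbour, and then Plaur (1.64 ± 0.470) and Procr (1.15 ± 0.496). The range of Tfpi did not meet that of Nos3, nor that of Plau that of Plaur. At 6 weeks Plat (14.5 ± 2.34 TPM) still overlapped Nos3 (12.9 ± 2.39), now with the higher mean. Plau (10.9 ± 2.57) was above F3 (6.27 ± 0.712), and Plaur (6.45 ± 1.39) overlapped F3. Procr was last at every time, at 3.74 ± 1.11 TPM at 6 weeks. Spread within groups also differed by gene: over the 6 controls the coefficient of variation of CPM was 7.60% for Thbd and 36.5% for Procr.

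Plat, Plau and Procr varied together across the 18 mice, largely along with the groups. Their Pearson r of log2 CPM were 0.85 (Plat and Plau), 0.84 (Plat and Procr) and 0.81 (Plau and Procr). After the group means were taken out, these became 0.36, 0.61 and 0.47. Plau and Plaur had an r of 0.72 over all mice and -0.22 within groups. Points here share the same libraries, and these are descriptions. The gene most like Plat was Inpp5d, a phosphatase of blood cells (r = 0.97, within groups 0.90), followed by Coro1a (0.96) and Cfl1 (0.95). For Procr the closest were Rhoh (r = 0.94, within groups 0.87), Prcp and Themis2. For Plau they were Mcam (0.94, within groups 0.59), Cdk6 and Anxa2, and for Plaur Etv6 (0.91, within groups 0.53), Gtse1 and Mdm2. Vwf was most like Hmga1b, Crispld2 and Abca8a (0.86, 0.86 and 0.85), and Thbd most like Rassf10, Ddx47 and 3425401B19Rik (0.87, 0.86 and 0.81).

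Of the other genes of fibrinolysis, Serpine2, Anxa2, S100a10 and Vtn were called higher at 6 weeks. Of 11 genes on this list, 7 passed the filter, 4 were called higher and 0 lower, where 13.5% and 11.5% of all genes were, by edgeR and by DESeq2 alike (0 lower also at an unadjusted P under 0.05), and the median log2 fold change of the 7 was 0.76 (-0.02 over all genes). The other 3, Mrc2, Lrp1 and Plgrkt, named here after their values were seen, were 0.23, -0.02 and -0.08 and did not pass the test. Serpine2, which inhibits thrombin and urokinase, rose by 1.44 at 6 weeks (SE 0.31, BH-adjusted P = 0.00229). Anxa2 and S100a10, which together form a surface receptor for plasminogen and its activators, rose at both times: by 0.63 and 1.27 at 2 weeks, and by 1.23 and 1.45 at 6 weeks. Vtn, the vitronectin that binds the urokinase receptor, rose by 0.76 at 6 weeks (SE 0.15, BH-adjusted P = 0.00137). Plasminogen itself, Plg, a liver gene, was among the 4 that did not pass the filter.

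Of 12 genes on the list of other anticoagulant genes, with Gas6 among them, 8 passed the filter. At 6 weeks 4 were called higher, Gas6 included, and 0 lower by either edgeR or DESeq2, where edgeR called 13.5% and 11.5% of all genes. At an unadjusted P under 0.05, 6 were higher and 0 lower. Gas6 is a vitamin K dependent ligand of TAM receptors rather than an anticoagulant. Its control mean was 167 ± 9.60 CPM (SD, n = 6), with 287 ± 19.2 at 2 weeks and 239 ± 28.2 at 6 weeks. It rose by 0.78 at 2 weeks (BH-adjusted P = 1.71e-06) and by 0.52 at 6 weeks (BH-adjusted P = 4.42e-05), and fell by 0.27 between them (BH-adjusted P = 0.0347), a step that was kept in 10 of 18 runs leaving out 1 mouse and had adjusted P up to 0.0772. Pros1, encoding protein S, the cofactor of activated protein C, rose by 0.55 at 2 weeks (BH-adjusted P = 0.00213) and 0.74 at 6 weeks (BH-adjusted P = 1.34e-05). Serpind1, encoding heparin cofactor II, and Tfpi2 rose by 0.91 and 1.13 at 6 weeks (BH-adjusted P = 0.00585 and 0.0249), the latter on 4 to 15 counts per control mouse and lost in 5 of 18 runs leaving out 1 mouse (adjusted P up to 0.0620).

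All 4 thrombin and protease receptors were called higher at 6 weeks by edgeR (3 by DESeq2) and 0 at 2 weeks by either tool, also at an unadjusted P under 0.05. Of all genes, edgeR called 13.5% higher at 6 weeks and 3.09% at 2 weeks. F2r, the main thrombin receptor of endothelium, was 44.0 ± 8.06 CPM in controls and 60.1 ± 7.17 at 6 weeks, a log2 fold change of 0.45 (SE 0.12, BH-adjusted P = 0.0104). F2rl3 was 0.776 to 2.15 CPM in controls and 2.18 to 2.82 at 6 weeks, without overlap, and rose by 0.88 (SE 0.23, BH-adjusted P = 0.00856). F2rl1 and F2rl2 were called on few counts, 0 to 13 and 1 to 2 per control mouse and 3 to 52 and 0 to 10 per 6-week mouse, and the F2rl2 call was lost without 6-week mouse 6 (BH-adjusted P = 0.0547). F2rl2 was at most 0.151 CPM in any control, under the filter of 0.23 CPM. It was tested only through irradiated mice, so its call adds nothing to the count of 4. Of the coagulation factors and fibrinogen chains, most of which the liver makes, 5 of the 14 in the files passed the filter. F7 and F10 were called higher at 6 weeks with 0 to 5 and 0 to 3 counts per control mouse and 2 to 9 and 2 to 12 at 6 weeks, at or near the floor. Their medians were 0.0325 and 0.0788 CPM in controls, under the filter, and 0.381 and 0.357 CPM at 6 weeks. Passing the filter thus leaned mainly on irradiated mice. The F7 call, at the threshold (edgeR, BH-adjusted P = 0.049996), was kept in 6 of 18 runs leaving out 1 mouse (adjusted P up to 0.117) and that of F10 in all 18. DESeq2 called 1 gene of this list higher at 6 weeks, where edgeR called 2. F8, which endothelium makes and Vwf carries, was 5.33 ± 0.634 CPM in controls and 3.90 ± 0.485 at 2 weeks. It fell by 0.45 at 2 weeks (SE 0.13, BH-adjusted P = 0.0496), a call kept in 5 of 18 runs leaving out 1 mouse (adjusted P up to 0.102), and its difference of -0.31 at 6 weeks did not pass the test (BH-adjusted P = 0.0910).

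A list drawn up for Vwf processing and storage, which also held Clec14a and the multimerins Mmrn1 and Mmrn2, was mixed. Of its 7 genes 6 passed the filter. At 6 weeks 1 was called higher and 1 lower by edgeR and by DESeq2 (edgeR called 13.5% and 11.5% of all genes). Rab27a, Rab3d and Sytl4, named here after their values were seen, did not pass the test in any comparison. Their log2 fold changes at 6 weeks were 0.33, -0.27 and -0.11. Clec14a, an endothelial lectin, was higher at 6 weeks by 0.60 (SE 0.19, BH-adjusted P = 0.0228), a call lost without control mouse 5 (BH-adjusted P = 0.0535) or 6-week mouse 1 (BH-adjusted P = 0.0507). Mmrn1, encoding multimerin 1 of platelets and endothelium, averaged 8.97 ± 2.62 CPM among control mice, 9.36 ± 1.72 at 2 weeks and then 4.98 ± 1.38 at 6 weeks. It fell by 0.86 at 6 weeks (SE 0.21, BH-adjusted P = 0.00507) and by 0.92 from 2 to 6 weeks (SE 0.21, BH-adjusted P = 0.0194). Of 4 lymphatic endothelial markers, Ccl21a (-1.07) and Prox1 (-0.40) were also called lower at 6 weeks. Lyve1 (-0.06) and Pdpn (0.26) did not pass the test. The summed level of the 4 was 149 to 183 CPM in controls and 109 to 141 at 6 weeks. The part of lymphatic cells in the level of Mmrn1 was not tested.

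Around Nos3, 11 of 12 genes of the nitric oxide pathway passed the filter, 3 were called higher at 6 weeks and 0 lower by edgeR and by DESeq2, where edgeR called 13.5% and 11.5% of all genes (4 and 0 at an unadjusted P under 0.05), with a median log2 fold change of -0.002. Cav1, the caveolin that binds and restrains Nos3, rose by 0.37 (SE 0.09, BH-adjusted P = 0.00481). Gch1, which makes the cofactor tetrahydrobiopterin, rose by 0.51 (SE 0.14, BH-adjusted P = 0.0110), and Nos2, the inducible synthase, by 0.43 (SE 0.14, BH-adjusted P = 0.0270). The Nos2 call was kept in 12 of 18 runs leaving out 1 mouse (adjusted P up to 0.0763). Of the 4 regulators of Thbd and Nos3, Map3k3 rose by 0.26 at 6 weeks (SE 0.05, BH-adjusted P = 0.000513). Scaled to pan-endothelial markers, the 6-week differences of F2r (0.32, BH-adjusted P = 0.0566), Cav1 (0.24, BH-adjusted P = 0.0588), Gch1 (0.38, BH-adjusted P = 0.0722), Nos2 (0.29, BH-adjusted P = 0.0713) and Map3k3 (0.12, BH-adjusted P = 0.189) missed the threshold, and on the log2(TPM + 1) scale that of Mmrn1 did (-0.26, BH-adjusted P = 0.155). Klf2, a shear-induced factor, was -0.06 at 6 weeks (SE 0.18, BH-adjusted P = 0.855), and Klf4 0.11 (SE 0.14, BH-adjusted P = 0.629).

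**Figure D5:**
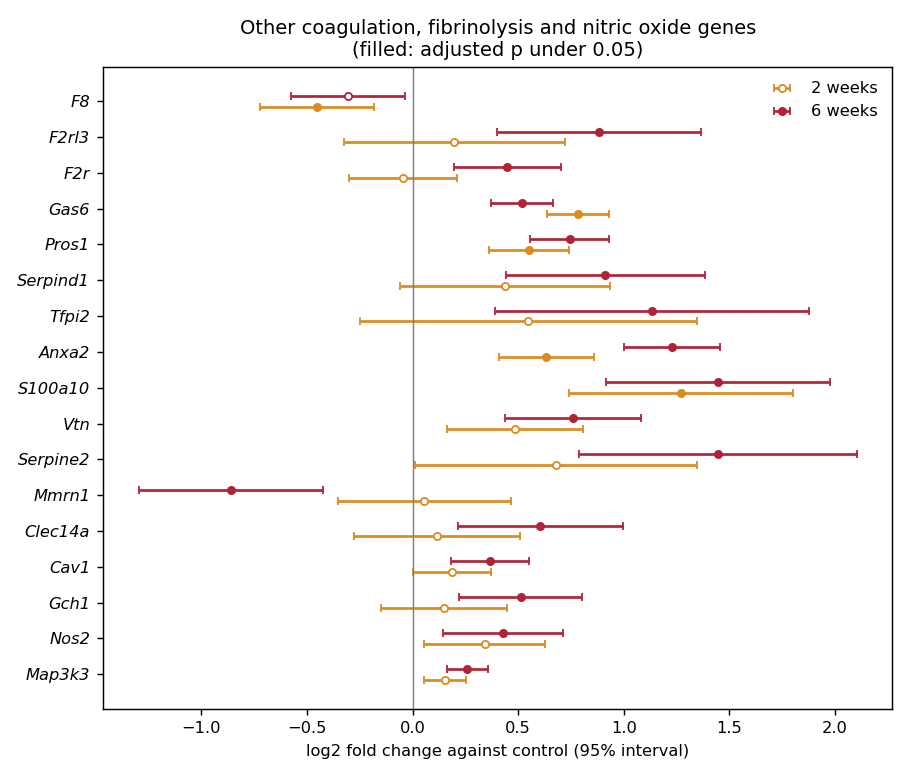
Log2 fold change against control (horizontal axis, points with 95% intervals) at 2 weeks and 6 weeks. Shown are genes called in a comparison from the other lists on coagulation, fibrinolysis, Vwf processing and storage, and the nitric oxide pathway. From the Vwf list these are Mmrn1 and Clec14a. Filled points passed an adjusted P of 0.05, and 4 genes near the floor are left out. Gas6, Pros1, Anxa2 and S100a10 are filled at both times, and Serpine2 and Vtn at 6 weeks only.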

How the data were processed

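RNA of 18 hearts, 6 mice a group, was sequenced by the study as paired reads. The authors aligned reads with STAR to GRCm38, quantified them with Salmon 1.0 and used tximport to obtain gene values. The deposited estimated counts are neither whole nor normalized between mice, and the deposited TPM values were made in the same step. Symbols and coordinates are those of GENCODE M21, matched to 29301 of 30072 gene IDs.

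The rounded estimates were fitted with edgeR 4.0.16 (R 4.3.3), after a filter of 0.23 CPM or more in 6 or more mice, which 15054 genes passed, and TMM scaling. One quasi-likelihood fit held the 3 groups, tests were two-sided, and the Benjamini-Hochberg (BH) adjustment ran over all genes of a comparison. SE was derived as the absolute log2 fold change over the square root of the F statistic. The 95% intervals used this SE with the t distribution, and a coefficient of variation is SD over mean. Marker lists were compared as mean log2 CPM (prior count 2) per mouse with two-sided exact permutation tests (smallest possible P with these group sizes, 0.00216). The code was tested on simulated data. Alternatives were DESeq2 1.42.0, limma 3.58.1 (voom with sample weights), other scalings, filters, TPM with pseudocounts of 1 and 0.1, Y-linked expression as a covariate, the replicate block, and leaving out each mouse.

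The 9 genes and all lists were chosen with earlier results of these data known. Named besides them are the called genes of each pathway list (at most 5 a list, by adjusted P) and the 3 genes most correlated with each called member. Some genes of the pathway lists are not reported here, and not analysed were protein or physiology data of the study.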

Additional observations from a re-analysis of the deposited data

Results flagged for a closer look

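In 2 groups 1 mouse lay further from the other 5 than Dixon's 95% limit allows. Vwf was 112.7 CPM in 6-week mouse 2, where the other 5 mice were between 54.9 and 72.2 CPM. Plau was 23.81 CPM in 6-week mouse 1, where the other 5 were between 14.9 and 18.1 CPM. Chance flags about 1 in 20 groups, and 27 groups of 6 mice were examined for the 9 genes. The change of Plau differed between the times: it was higher at 6 than at 2 weeks by 0.67 on the log2 scale (edgeR, adjusted P = 0.0106).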

How the results depend on the processing

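Each result was recomputed under 32 alternatives, and 2 more (TPM centred on the median gene of each mouse, and control mouse 4 with 6-week mouse 2 left out together) were chosen after seeing the data. Plaur at both times, Plau, Plat and Procr at 6 weeks and Plau between the times passed the test under all 32. Reversals of direction were among values near 0, apart from those in TPM or with library size only, where the median of all genes moved too. With library size only, F3 was 0.12 and Tfpi 0.26 at 6 weeks, and Tfpi was 0.060, Thbd 0.061 and Vwf 0.0046 at 2 weeks. With log2(TPM + 1) and log2(TPM + 0.1), respectively, F3 was 0.086 and 0.10 at 2 weeks and 0.23 and 0.26 at 6 weeks, Tfpi was 0.17 and 0.18 at 2 weeks, then 0.47 and 0.49 at 6 weeks, and Thbd was 0.14 and 0.14 at 2 weeks, then 0.043 and 0.044 at 6 weeks. Tfpi at 6 weeks was 0.0016 by DESeq2 and by its size factors in edgeR, 0.0017 by voom, 0.0028 with the compared groups alone, 0.070 in centred TPM, 0.0010 without the pair of mice, and -0.072 to 0.053 leaving out 1 mouse. Between the times F3 was -0.0013 by voom, -0.079 scaled to pan-endothelial markers, -0.017 in centred TPM, -0.042 without the pair of mice and -0.040 to 0.065 leaving out 1 mouse, and Tfpi was -0.014 scaled to pan-endothelial markers. Nos3 at 2 weeks was -0.054 without the pair and -0.055 to 0.16 leaving out 1 mouse. In centred TPM, F7 and F2rl2 were -0.088 and -0.13 at 6 weeks, and Vwf was -0.53 (adjusted P = 0.0791). Vwf kept its direction there and lost only its call. The cause of that loss and of the reversals was not tested.

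The number of the 9 genes called between the times was 1 and became 3 by DESeq2, by voom and without the pair of mice, and 2 with library size only, with log2(TPM + 1), scaled to pan-endothelial markers, with the compared groups alone and with the replicate block, and 1 to 2 leaving out 1 mouse (2 without control mouse 3 or 4 or 6-week mouse 2). At 2 weeks it was 3, and 1 to 3 leaving out 1 mouse (1 without control mouse 3, 5 or 6 or 2-week mouse 1, 5 or 6), and 2 by voom (without Plau), scaled to pan-endothelial markers or with the compared groups alone (without Plat), and in centred TPM or without the pair of mice (without Plau). At 6 weeks it was 6, and 5 or 6 under every alternative, though with library size only and in uncentred TPM none of these was lower. Equal replicate numbers shared the level of Y-linked transcripts, low in mice 1 to 3 and high in mice 4 to 6 of each group. Otherwise little pairing showed. Of 18 pairs of mice 2 had a correlation of their deviations over 0.1, and 3 of 18 mice correlated best with their own number. With the replicate block Vwf between the times passed the test at -0.54 (adjusted P = 0.0306). Depth limits Procr and Plaur most, with 8 to 36 counts per control mouse.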
